A study of Homo sapiens with 8 samples.

Results

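The transcriptome of hypoxic SK-N-MC cells with a repressed LOXHD1 enhancer was compared with that of control cells in normoxia, across 4 hypoxic and 2 normoxic libraries. SK-N-MC is an established Ewing sarcoma cell line, driven by the EWSR1-FLI1 fusion. Expression was given as FPKM, a read level scaled to transcript length and library size. Genes were kept where at least 2 of these 6 libraries reached 5 FPKM, which left 11102 of the 60332 genes of the table. Just inside this limit, SMURF2P1 had a second highest value of 5.01 FPKM, and just outside it METTL15 had 4.999 FPKM.

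All 6 libraries came from puromycin-selected cells that carried lenti-dCas9-KRAB, a dead Cas9 joined to a transcriptional repressor. The control cells had the empty vector, though the paper's text calls the control cells of this experiment parental, and were kept in normoxia. The eKD1 and eKD2 cells had a guide each, different between them, for the GGAA-repeat enhancer of LOXHD1, and were kept for 16 h in 1% oxygen. They were selected pools of infected cells, not clones, and each group had 2 libraries. The study calls the duplicates biological, and no label says whether they came from separate infections, so p-values measure the spread between these libraries. Hypoxic control cells were not used. Oxygen, enhancer repression and the presence of a guide all differ between the sides compared, and their parts cannot be told apart. The hypoxia program described here is thus what hypoxic enhancer-repressed cells expressed relative to normoxic control cells.

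When oxygen falls, prolyl hydroxylases no longer mark the HIF alpha subunits for destruction by VHL. The subunits then pair with ARNT and bind DNA at cores such as ACGTG. Their targets raise glucose uptake and glycolysis, hold pyruvate back from mitochondria, remove mitochondria by mitophagy, export acid and secrete angiogenic factors. Several targets, such as the sensor EGLN1, feed back on the pathway itself. Poorly perfused regions of solid tumors are known to be hypoxic.

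The enhancer target itself was checked first. LOXHD1 (ENSG00000167210.16_2; GRCh37, chr18:44056935-44237183, minus strand) stood at 156 and 169 FPKM in control normoxia, 17.3 and 15.0 FPKM with eKD1 and 11.7 and 11.8 FPKM with eKD2. All 4 eKD libraries were far below both normoxia libraries. The eKD mean was 8.60% of the normoxia mean, with 9.97% in eKD1 and 7.23% in eKD2, a difference of -3.47 on the log2 scale with an SE of 0.18 (adjusted p = 0.000137 by limma). Here and below, changes are differences in mean log2(FPKM + 1), which understates the change of low genes, and folds are ratios of mean FPKM.

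The libraries carried the defining genes of Ewing sarcoma. CD99, the surface antigen used in diagnosis, was at 305 to 333 FPKM in all 6 libraries, the transcription factor NKX2-2 at 26.9 to 36.1 FPKM and the protein kinase PRKCB at 71.8 to 94.7 FPKM. FLI1, the fusion partner, was at 36.7 and 36.5 FPKM in normoxia and 23.1 to 25.2 FPKM in the eKD libraries, a fall of 0.58 on the log2 scale (adjusted p = 0.0102). Of 15 markers of other cell types, 14 were in the table, and their summed level was 211 and 212 FPKM in normoxia and 190 to 213 FPKM in the eKD libraries. Most of it came from the small matrix proteoglycan DCN, at 131 to 147 FPKM in all libraries. LUM, like DCN a fibroblast marker, was at 37.0 to 47.2 FPKM. The epithelial markers EPCAM and CDH1 were at 3.39 to 5.80 FPKM and at up to 2.33 FPKM. The leukocyte marker CD68 was at up to 3.84 FPKM. CD3E, KRT5 and HBB were listed at 0 throughout. The leukocyte phosphatase PTPRC was at 22.5 and 23.8 FPKM in normoxia and 9.59 to 14.3 FPKM in the eKD libraries (adjusted p = 0.0185, and 0.110 and 0.129 without replicate 1 or 2 of control normoxia). In bulk libraries fewer cells of a type and less RNA per cell cannot be told apart. Column totals ranged from 865107 to 997300 FPKM, both normoxia libraries were lowest, and duplicates correlated across genes at r = 0.932 to 0.942.

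The hypoxic eKD cells differed from normoxic control cells in many genes. Among 11102 genes limma placed 1322 (11.9%) higher and 911 (8.21%) lower, with an adjusted p under 0.05 as the limit for a call. Among these, 421 (3.79% of all tested) rose and 131 (1.18%) fell by at least 1 on the log2 scale. All 4 eKD libraries lay above both normoxia libraries in 2868 genes (25.8%) and below both in 2402 (21.6%). Fewer genes were called with 1 normoxia library: 320 higher and 91 lower without replicate 1 of control normoxia, and 304 and 83 without replicate 2. The normoxia side is then a lone library, assumed to vary like the eKD libraries, and the test has less power, so a call lost in this way is not in itself a smaller change. Below, "without either normoxia library" means with each of them left out in turn. The balance of directions depends on scaling. With libraries scaled to equal FPKM totals the median of all genes moved from 0.03 to -0.12 and 34.0% of the calls were rises, against 59.2% as deposited. Each guide was also compared with normoxia in 1 fit of 3 groups, which takes the spread between guides out of the error. There eKD1 had 1648 genes higher (14.8%) and 1434 lower (12.9%), and eKD2 had 2167 higher (19.5%) and 1547 lower (13.9%). The joint comparison in that fit gave 2159 higher and 1693 lower.

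Hypoxia genes were called higher more often than genes in general. In 6 lists of hypoxia-linked genes, 78 of 90 members passed the filter, and 59 were called higher, 1 lower and 18 neither. Their median log2 change was 1.54, against 0.03 over all genes tested. Of the 59 risen members, 52 rose by at least 1 and 28 by at least 2 on the log2 scale. A gene below the limit in both normoxia libraries could enter only through the hypoxic ones, and all 16 such members were called higher. Of the other 62 members 43 were called higher (69.4%), against 10.6% of all genes with at least 5 FPKM in a normoxia library. Fewer of the same 78 members were called higher without replicate 1 or 2 of control normoxia, where that side is a lone library. Without 1 of the eKD libraries 56 to 60 were called higher. The lists were drawn up from known hypoxia genes with earlier results of these data known, and their members named below outside the naming rule were chosen after their values were seen.

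**Figure D1:**
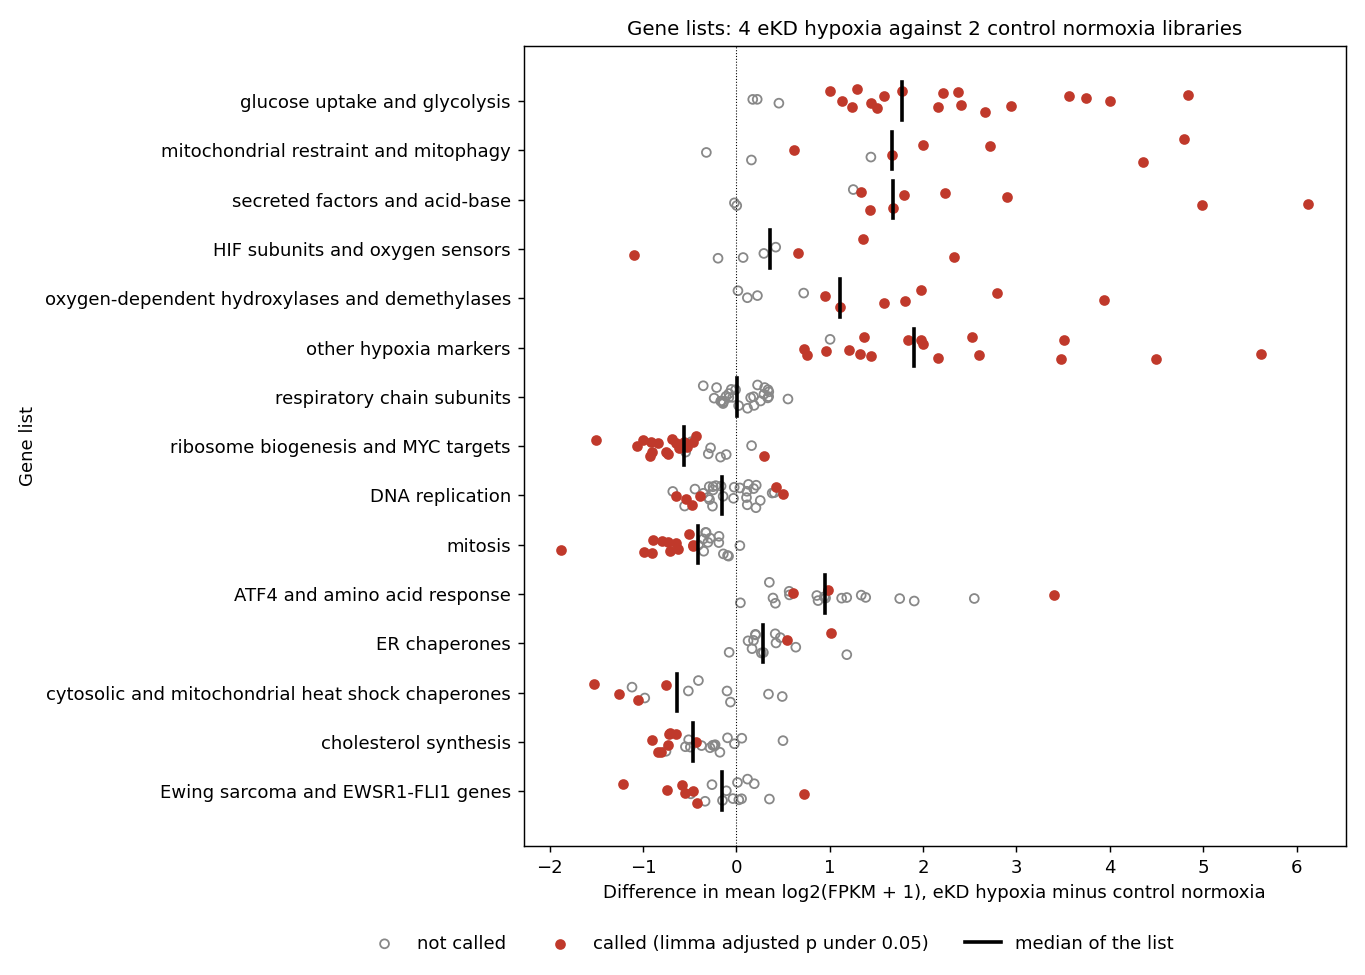
Difference in mean log2(FPKM + 1) between 4 eKD hypoxia and 2 control normoxia libraries (horizontal axis) for the genes of each list (rows); filled red points were called by limma at an adjusted p under 0.05, open points were not, and black bars are list medians. The medians of 5 of the 6 hypoxia lists lie between 1.11 and 1.91, respiratory chain subunits sit at 0.01 and ribosome biogenesis and mitosis lie at -0.56 and -0.41.

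Glucose uptake and glycolysis rose at nearly every step. Of 21 genes, all of which passed the filter, 18 were called higher and none lower, with a median log2 change of 1.77. Over all genes 11.9% were called higher and 8.21% lower. Of the 16 members with at least 5 FPKM in a normoxia library 13 were called higher, against 10.6% of all such genes. In 20 of the 21 genes all 4 eKD libraries lay above both normoxia libraries, as in 25.8% of all genes. SLC2A1, the basal glucose transporter, was at 13.8 and 14.8 FPKM in normoxia, 106 and 112 FPKM with eKD1 and 122 and 128 FPKM with eKD2. This was an 8.17-fold rise (log2 2.94 ± 0.11 SE, adjusted p = 2.95e-05). SLC2A3, a high-affinity transporter, went from 2.11 and 2.51 FPKM to 33.5 and 24.1 FPKM with eKD1 and 52.3 and 49.1 FPKM with eKD2 (log2 3.56 ± 0.31 SE, adjusted p = 0.00135).

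The hexokinases trap glucose in the cell. HK2, the inducible form, rose from 19.1 and 20.3 FPKM to 75.6 and 73.8 FPKM with eKD1 and 125 and 117 FPKM with eKD2 (adjusted p = 0.0031). HK1 was at only 1.95 and 1.41 FPKM in normoxia and 38.8 to 42.8 FPKM in all 4 eKD libraries (log2 4 ± 0.13 SE, adjusted p = 1.32e-05). The bifunctional enzymes that set the level of the phosphofructokinase activator fructose bisphosphate also rose. PFKFB4 went from 3.52 and 1.99 FPKM to 45.7 to 50.4 FPKM, and PFKFB3 from 17.3 and 29.4 FPKM to 88.2 to 148 FPKM. The duplicates of PFKFB3 were wide apart in eKD2, at 144 and 88.2 FPKM, yet none overlapped the normoxia libraries.

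In the lower part of the pathway the most abundant messages rose too. PGK1, phosphoglycerate kinase, was at 697 and 743 FPKM in normoxia, 4695 and 4523 FPKM with eKD1 and 4411 and 4658 FPKM with eKD2, a 6.35-fold rise with an SE of only 0.05 on the log2 scale (adjusted p = 2.62e-06). LDHA, which turns pyruvate into lactate, was at 1285 and 1316 FPKM in normoxia and between 5664 and 5909 FPKM in the eKD libraries, a 4.46-fold rise. The brain-type aldolase ALDOC started almost silent, at 2.18 and 2.33 FPKM, and reached 92.2 and 82.2 FPKM with eKD1 and 92.0 and 103 FPKM with eKD2, 41.0-fold higher. The neuronal enolase ENO2 rose from 77.4 and 96.3 FPKM to between 219 and 268 FPKM. Several of these genes, GAPDH, PGK1, LDHA and ENO1 among them, have processed pseudogenes, and reads shared with near-identical copies may be split between them.

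A few genes of the list were not called. GPI, the isomerase at the head of glycolysis, was at 96.3 and 94.2 FPKM in normoxia and 101 to 112 FPKM in the eKD libraries (log2 0.18, adjusted p = 0.188). PFKM, the muscle phosphofructokinase, was at 207 and 199 FPKM in normoxia and 195 to 271 FPKM in the eKD libraries, which overlap (adjusted p = 0.297). The third uncalled gene was PFKP, the platelet form, whose guides differed: 297 and 314 FPKM in eKD1, 206 and 210 FPKM in eKD2 and 191 and 177 FPKM in normoxia. Another phosphofructokinase gene, PFKL, was called higher, from 44.5 and 52.5 FPKM to 93.0 to 116 FPKM (adjusted p = 0.0031 by limma).

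**Figure D2:**
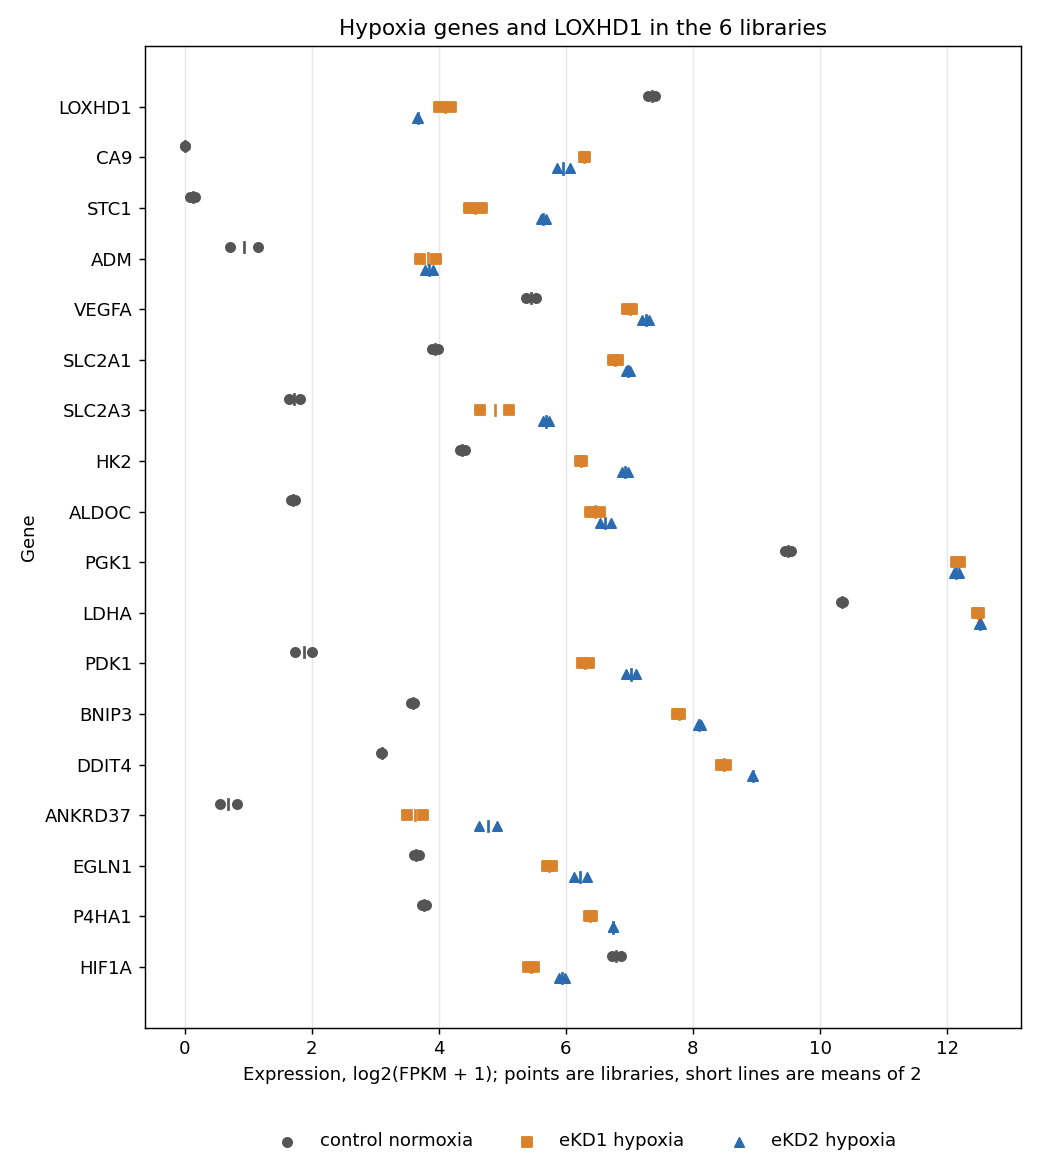
Expression of LOXHD1 and 17 hypoxia genes (rows) as log2(FPKM + 1) (horizontal axis) in each of the 6 libraries, with the mean of each pair as a short line. LOXHD1 and HIF1A lie to the left of normoxia in the eKD libraries and the other 16 genes to the right, with CA9 listed at 0 in normoxia and at 56.9 to 77.5 FPKM in the eKD libraries.

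Genes that restrain mitochondria rose with glycolysis. Of 11 genes, 9 passed the filter and 6 were called higher (median log2 change 1.66), where 11.9% of all genes were. Among the 7 with at least 5 FPKM in a normoxia library 4 were called higher, against 10.6% of all such genes. PDK1, the kinase that blocks pyruvate dehydrogenase, rose from 3.01 and 2.33 FPKM to 75.1 and 81.2 FPKM with eKD1 and 137 and 122 FPKM with eKD2 (38.9-fold, log2 4.80 ± 0.27 SE, adjusted p = 0.000189). The mitophagy receptor BNIP3 rose from 10.8 and 11.2 FPKM to 222 and 215 FPKM with eKD1 and 279 and 268 FPKM with eKD2 (adjusted p = 1.2e-05). Its relative BNIP3L, already at 131 and 116 FPKM, reached 429 to 554 FPKM, a 4.04-fold rise.

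MXI1, a MYC antagonist, was at 12.5 and 14.0 FPKM in normoxia, 23.7 and 25.1 FPKM with eKD1 and 55.9 and 59.5 FPKM with eKD2. All 4 eKD libraries were above normoxia, while the spread between guides left the joint comparison just short (adjusted p = 0.0522). HIGD1A, a respirasome assembly factor, had the lowest change of the list, from 22.1 and 25 FPKM to 16.2 to 21.8 FPKM (adjusted p = 0.196). COX4I2 and NDUFA4L2, known hypoxic subunit forms, stayed below the filter, with NDUFA4L2 reaching 4.84 FPKM in 1 eKD2 library.

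The nuclear genes of the respiratory chain were near the median of all genes. All 28 subunit genes passed the filter, and 0 were called by limma in either direction in the joint comparison, with a median log2 change of 0.01 and a range from -0.35 in NDUFA9 to 0.55 in NDUFB5. At an unadjusted p under 0.05 there were 9 higher and 2 lower. NDUFB5, a complex I subunit, was at 204 and 236 FPKM in normoxia, 420 and 280 FPKM with eKD1 and 276 and 332 FPKM with eKD2 (adjusted p = 0.0762). By guide, in the fit of 3 groups, 9 of the 28 were called higher in eKD1, and 3 higher and 4 lower in eKD2. Among all genes, 14.8% were higher in eKD1, and 19.5% higher and 13.9% lower in eKD2. With equal FPKM totals the median of the list was -0.14, close to the median of all genes under that scaling.

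Secreted factors and acid-base genes included a gene that was not detected in normoxia. CA9, the membrane carbonic anhydrase that acidifies the surroundings of hypoxic tumor cells, was listed at 0 in both normoxia libraries. It was at 76.6 and 77.5 FPKM with eKD1 and 66.0 and 56.9 FPKM with eKD2 (adjusted p = 6.08e-06). Its homolog CA12 stayed below 1 FPKM in all 6 libraries and did not pass the filter. Of 14 genes of this list 11 passed, and 8 were called higher and none lower (median log2 change 1.67). Over all genes 11.9% were called higher and 8.21% lower. Among the 8 members with at least 5 FPKM in a normoxia library 5 were called higher, against 10.6% of all such genes.

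VEGFA, the main angiogenic ligand, was at 45.3 and 40.5 FPKM in normoxia, 124 and 130 FPKM with eKD1 and 158 and 146 FPKM with eKD2, a 3.25-fold rise (log2 1.67 ± 0.12 SE, adjusted p = 0.000803). The vasodilator peptide ADM rose from 1.23 and 0.639 FPKM to 12.1 to 14.5 FPKM. STC1, a glycoprotein hormone of calcium balance, rose from 0.0582 and 0.119 FPKM to 24.6 and 21.1 FPKM with eKD1 and 47.7 and 50.2 FPKM with eKD2. Its paralog STC2 went from 24.8 and 25.1 FPKM to 101 and 88.6 FPKM with eKD1 and 158 and 153 FPKM with eKD2. For both stanniocalcins each eKD2 library was above each eKD1 library.

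ANGPTL4, an inhibitor of lipoprotein lipase, went the other way. It was at 19.1 and 20.1 FPKM in normoxia, 71.1 and 76.8 FPKM with eKD1 and 27.9 and 34.9 FPKM with eKD2. It rose with each guide in the fit of 3 groups (log2 1.86 and 0.64, adjusted p = 0.00163 and 0.0157), and was not called in the joint comparison (adjusted p = 0.0803). IGFBP5, a binding protein of insulin-like growth factors, was at 45.9 and 45.3 FPKM in normoxia and overlapped them in the eKD libraries, at 39.2 to 51.3 FPKM.

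The oxygen-sensing machinery moved in both directions. Of 11 HIF subunits and sensors 8 passed the filter, and 3 were called higher and 1 lower. Over all genes 11.9% were called higher and 8.21% lower. HIF1A, the oxygen-labile subunit, fell from 104 and 116 FPKM in normoxia to 44 and 41.3 FPKM with eKD1 and 62.1 and 58.5 FPKM with eKD2, to 46.8% of the normoxia mean (log2 -1.10 ± 0.19 SE, adjusted p = 0.0106). The call was lost without either normoxia library (adjusted p = 0.0717 and 0.0932). Inside the HIF1A locus, on the opposite strand, HIF1A-AS2 was at 0.657 and 0.448 FPKM in normoxia and 39.2 to 45.3 FPKM in the eKD libraries. The library kit does not keep strand, so reads of HIF1A and of HIF1A-AS2 cannot be told apart where they overlap.

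EGLN1, the main prolyl hydroxylase that senses oxygen, rose from 11.1 and 11.9 FPKM to 53.7 and 50.9 FPKM with eKD1 and 68.7 and 79.5 FPKM with eKD2 (5.48-fold, adjusted p = 0.00112). ARNT, the stable partner of HIF1A, was at 14.0 and 16.1 FPKM in normoxia and 21.5 to 27.3 FPKM in the eKD libraries (adjusted p = 0.0207, lost without either normoxia library). HIF3A, a weaker alpha subunit, rose from 5.71 and 6.93 FPKM to between 12.6 and 25.3 FPKM. EPAS1, which encodes the other main alpha subunit, was listed at 0 in 5 of the 6 libraries and at 0.359 FPKM in an eKD2 library. The hydroxylase EGLN3 was listed at 0 in 4 libraries and at 0.278 and 0.160 FPKM with eKD2. Neither passed the filter.

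Enzymes that use oxygen as a substrate rose widely. All 11 hydroxylases and demethylases passed the filter, and 7 were called higher and none lower (median log2 change 1.11). Over all genes 11.9% were called higher and 8.21% lower. Among the 10 members with at least 5 FPKM in a normoxia library 6 were called higher, against 10.6% of all such genes. P4HA1, a collagen prolyl hydroxylase, was at 12.3 and 12.9 FPKM in normoxia, 81.4 and 83.9 FPKM with eKD1 and 106 and 106 FPKM with eKD2 (7.47-fold, adjusted p = 0.000142). Its paralog P4HA2 rose from 0.528 and 0.663 FPKM to 17.9 to 28.9 FPKM, and the collagen lysyl hydroxylase PLOD2 from 49.4 and 45.0 FPKM to 145 to 194 FPKM. The histone demethylase KDM3A rose from 27.1 and 35.4 FPKM to 97.4 to 152 FPKM (4.05-fold, adjusted p = 0.00281). The DNA demethylase TET2 was at 15.9 and 13.8 FPKM in normoxia and 12.4 to 17.6 FPKM in the eKD libraries, which overlap, and the sign of its change depends on the scaling.

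Among 22 other hypoxia markers, 18 passed the filter and 17 were called higher, where 11.9% of all genes were. Of these 18, 13 had at least 5 FPKM in a normoxia library. In that subset 12 were called higher, against 10.6% of all such genes. DDIT4, an inhibitor of mTORC1, was at 7.53 and 7.58 FPKM in normoxia, 348 and 365 FPKM with eKD1 and 489 and 494 FPKM with eKD2, 56.1-fold higher (log2 5.62 ± 0.17 SE, adjusted p = 1.2e-05). ANKRD37, an ankyrin repeat protein, rose from 0.765 and 0.464 FPKM to 12.4 and 10.3 FPKM with eKD1 and 23.7 and 29.1 FPKM with eKD2. MIR210HG, the host transcript of the hypoxia-induced miR-210, was at 6.27 and 4.94 FPKM in normoxia and 139 to 163 FPKM in the eKD libraries (log2 4.50 ± 0.13 SE, adjusted p = 7.67e-06). The difference between guides in MIR210HG was 0.05 on the log2 scale, with a 95% interval from -0.29 to 0.39.

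Smaller rises were seen in the stress gene NDRG1, from 17.2 and 14.1 FPKM to 27.8 to 46.0 FPKM (lost without either normoxia library), and in ERO1A, the oxidase of protein folding in the endoplasmic reticulum. ERO1A was at 15.8 and 17.2 FPKM in normoxia and 22.8 to 36.2 FPKM in the eKD libraries (adjusted p = 0.0444), and was not called under most of the alternatives tried. The repressor BHLHE40, a usual hypoxia target, stayed below the filter, at 0.0327 and 0 FPKM in normoxia and 0.937 to 4.62 FPKM in the eKD libraries. Its relative BHLHE41 and the genes GBE1 and SPAG4 were below it too.

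The promoters of these genes were read for ACGTG, a core to which the HIF dimer binds. Other forms of the core were not searched. The letters ACGTG were searched on both strands, so that CACGT on the strand shown is a match, and the palindrome CACGTG counts as overlapping matches. The sequences are the RefSeq promoters of GRCh38.p14, searched over the 250 bases before the start. Of 10103 protein-coding genes tested, 8308 were matched by symbol, and 30.3% of them had a match in at least 1 of their promoters. Windows of 70 bases are shown for 7 risen genes that had a match, to let the core be seen in its surroundings, with matches in capitals and each strand read toward the gene.
CA9 (chr9:35673858-35673927, plus strand): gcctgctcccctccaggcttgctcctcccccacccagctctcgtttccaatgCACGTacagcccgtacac
ALDOC (chr17:28576896-28576965, minus strand): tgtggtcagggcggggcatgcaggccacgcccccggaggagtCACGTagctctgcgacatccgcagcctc
EGLN1 (chr1:231422288-231422357, minus strand): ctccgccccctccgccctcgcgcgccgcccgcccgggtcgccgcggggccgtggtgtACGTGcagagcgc
LDHA (chr11:18394450-18394519, plus strand): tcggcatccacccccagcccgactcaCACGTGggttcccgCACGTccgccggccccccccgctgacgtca
BNIP3 (chr10:131982027-131982096, minus strand): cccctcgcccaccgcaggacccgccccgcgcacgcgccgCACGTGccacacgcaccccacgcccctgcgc
DDIT4 (chr10:72273759-72273828, plus strand): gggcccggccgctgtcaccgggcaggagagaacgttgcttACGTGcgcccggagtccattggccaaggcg
ANKRD37 (chr4:185396658-185396727, plus strand): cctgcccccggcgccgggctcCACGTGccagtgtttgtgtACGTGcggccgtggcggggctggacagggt

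The nearest match began 18 bases before the start in CA9, 28 in ALDOC, 13 in EGLN1, 73 in LDHA, 133 in BNIP3, 125 in DDIT4 and 143 in ANKRD37. LDHA and ANKRD37 held a CACGTG and a further core within the same window. A match is not shown here to be a bound site. Of 49 risen members of the hypoxia lists with a promoter, 28 had a match (57.1%), as did 32.5% of all genes called higher and 30.3% of those called lower. Among genes with a single promoter in the table, the shares were 48.6% of 35 risen members and 25.8% of all. By list, called or not, shares ran from 33.3% of 9 secreted factor and acid-base genes to 87.5% of 8 mitochondrial genes. The lists hold known hypoxia genes, drawn up with earlier results of these data known, so these shares are no separate evidence about these cells.

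The 12 largest rises among protein-coding genes with no overlap between sides were CA9, DDIT4, STC1, ALDOC, PDK1, BNIP3, HK1, P4HA2, PFKFB4, SLC2A3, TMSB4X and ANKRD37. Apart from DDIT4 and BNIP3, they were below 5 FPKM in both normoxia libraries and passed the filter only through the eKD libraries. The lists were drawn up with earlier results of these data known, so list membership of these genes is no separate evidence. Only TMSB4X was on no list. This actin-sequestering thymosin was at 2.06 and 0.504 FPKM in normoxia and 20.3 to 28.9 FPKM in the eKD libraries (adjusted p = 0.00112), and it has near-identical copies that can share its reads.

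The 12 largest falls chosen in the same way were LOXHD1, AC069257.3, EHMT1, CENPE, BMPER, VPS13B, NTS, NAPRT, MUC19, LBHD1, MROH6 and AKAP9. The histone methyltransferase EHMT1 was at 179 and 383 FPKM in normoxia and 41.7 to 117 FPKM in the eKD libraries, so its normoxia duplicates were themselves far apart (adjusted p = 0.0239). NTS, the neuropeptide neurotensin, fell from 15.8 and 14.2 FPKM to 5.92 and 4.78 FPKM with eKD1 and 2.65 and 3.48 FPKM with eKD2 (adjusted p = 0.0105). BMPER, a secreted modulator of BMP signals, fell from 6.47 and 7.20 FPKM to between 0.946 and 2.37 FPKM. NAPRT, which makes NAD from nicotinic acid, fell from 16.9 and 22.7 FPKM to 4.91 to 7.01 FPKM (adjusted p = 0.00367). LOXHD1 and NAPRT kept their calls without either normoxia library, 9 of the others lost theirs in both cases, and MROH6 lost it without replicate 1 (adjusted p = 0.064).

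Most ribosome biogenesis and MYC target genes were lower. All 25 passed the filter, and 17 were called lower and 1 higher, where 8.21% and 11.9% of all genes were. The median log2 change was -0.56. In 19 all 4 eKD libraries lay below both normoxia libraries, as in 21.6% of all genes. UTP20, a factor of small-subunit processing, had the largest fall, from 25.8 and 26.5 FPKM to between 8.32 and 9 FPKM, 32.9% of the normoxia level (log2 -1.50 ± 0.12 SE, adjusted p = 0.00089). NCL, the abundant nucleolar protein nucleolin, fell from 2034 and 2000 FPKM to 1389 to 1550 FPKM (adjusted p = 0.00586, lost without either normoxia library at 0.0658 and 0.0606). The member called higher was FBL, the fibrillarin of rRNA methylation, at 615 and 585 FPKM in normoxia and 710 to 756 FPKM in the eKD libraries (adjusted p = 0.0218). Its call was lost in 9 of the alternatives, with adjusted p = 0.169 and a log2 change of 0.14, against 0.29, at equal FPKM totals, and 0.105 and 0.163 without replicate 1 or 2 of control normoxia. MYC itself was at 209 and 235 FPKM in normoxia and 230 to 275 FPKM in the eKD libraries and was not called (log2 0.16, adjusted p = 0.286). Without either normoxia library 4 of the 25 were called lower.

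Of 25 mitosis genes 12 were called lower, none higher and 13 neither (median log2 change -0.41), where 8.21% of all genes were called lower. CCNB1, the cyclin of mitotic entry, fell from 286 and 307 FPKM to 162 and 163 FPKM with eKD1 and 153 and 154 FPKM with eKD2 (adjusted p = 0.00132). CENPE, a kinetochore motor, had the largest fall, from 59.4 and 29.0 FPKM to 4.96 to 15.1 FPKM, with normoxia duplicates that differed widely (adjusted p = 0.0319). The survivin gene BIRC5 was at 97.0 and 94.0 FPKM in normoxia and 90.8 to 117 FPKM in the eKD libraries and was not called (adjusted p = 0.861; its sign depends on the scaling). Without either normoxia library 1 mitosis gene was called lower.

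Of 32 DNA replication genes, 2 were called higher and 4 lower (median log2 change -0.15), where 11.9% and 8.21% of all genes were. The licensing factor CDC6 rose from 103 and 99.1 FPKM to 128 to 159 FPKM (adjusted p = 0.022, lost without either normoxia library), and the helicase subunit gene MCM5 was at 261 and 299 FPKM in normoxia, 196 and 223 FPKM with eKD1 and 145 and 144 FPKM with eKD2 (adjusted p = 0.0553). Between guides, 10 of the 32 were lower in eKD2 than in eKD1 and none higher, where 3.72% of all genes were lower and 5.31% higher.

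Of 22 cholesterol synthesis genes 8 were called lower, none higher and 14 neither (median log2 change -0.46), where 8.21% of all genes were lower. The count lower was 3 with no filter on low values and 4 with the replicate numbers as a block. FDPS, which makes farnesyl diphosphate, fell from 362 and 333 FPKM to 203 and 208 FPKM with eKD1 and 182 and 180 FPKM with eKD2 (adjusted p = 0.00311). SQLE, the oxygen-using squalene epoxidase, fell from 110 and 110 FPKM to 73.2 and 69.0 FPKM with eKD1 and 52.0 and 43.9 FPKM with eKD2 (adjusted p = 0.0287). Its call was lost with no filter (0.0732), with the replicate block (0.0541), without replicate 1 of eKD2 (0.061) and without replicate 1 or 2 of control normoxia (0.153 and 0.152), as adjusted p. HMGCS1, an early enzyme of the pathway, was at 45.8 and 44.2 FPKM in normoxia and 25.9 to 37.6 FPKM in the eKD libraries (adjusted p = 0.0926). INSIG1, which restrains the pathway, was highest of the list, at 7.94 and 7.13 FPKM in normoxia and 9.05 to 13.4 FPKM in the eKD libraries (adjusted p = 0.114). Without either normoxia library 1 gene of the pathway was called lower, and without 1 of the eKD2 libraries 4 or 5.

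Of 22 Ewing sarcoma and EWSR1-FLI1 genes 19 passed the filter, and 6 were called lower and 1 higher (median log2 change -0.15). Over all genes 8.21% were called lower and 11.9% higher. LIPI, a phospholipase and tumor antigen of Ewing sarcoma, fell from 49.5 and 57.2 FPKM to 23.4 and 26.5 FPKM with eKD1 and 21.1 and 19.0 FPKM with eKD2 (adjusted p = 0.0041, 0.0524 without replicate 2 of control normoxia). GSTM4, a glutathione transferase, was the only one called higher, from 30.7 and 27.1 FPKM to 44.4 to 54.6 FPKM (adjusted p = 0.00977, lost without either normoxia library).

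Levels of several hypoxia genes differed between the guides. In the direct comparison, 589 of 11102 genes (5.31%) were higher in eKD2 than in eKD1 and 413 (3.72%) lower. Leaving out 1 of the 4 eKD libraries reduced these to between 31 and 46 higher and to 19 or 20 lower. Of the 59 risen hypoxia members 44 had no call between guides, 13 were higher in eKD2 and 2 higher in eKD1. The median difference over the 78 members was 0.10, against 0.04 over all genes.

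VLDLR, a lipoprotein receptor, showed the largest difference among the risen members, at 3.11 and 2.36 FPKM in normoxia, 8.57 and 7.77 FPKM with eKD1 and 22.9 and 23.4 FPKM with eKD2 (log2 difference 1.40, adjusted p = 0.016). ANKRD37 and STC1 were also higher in eKD2, by 1.15 and 1.07 on the log2 scale (adjusted p = 0.0327 and 0.0189). Lower in eKD2 were the pyruvate kinase gene PKM (log2 difference -0.23) and NARF (-0.39). For PGK1 and LDHA the differences between guides were -0.02 (95% interval -0.15 to 0.10) and 0.03 (-0.05 to 0.11).

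**Figure D3:**
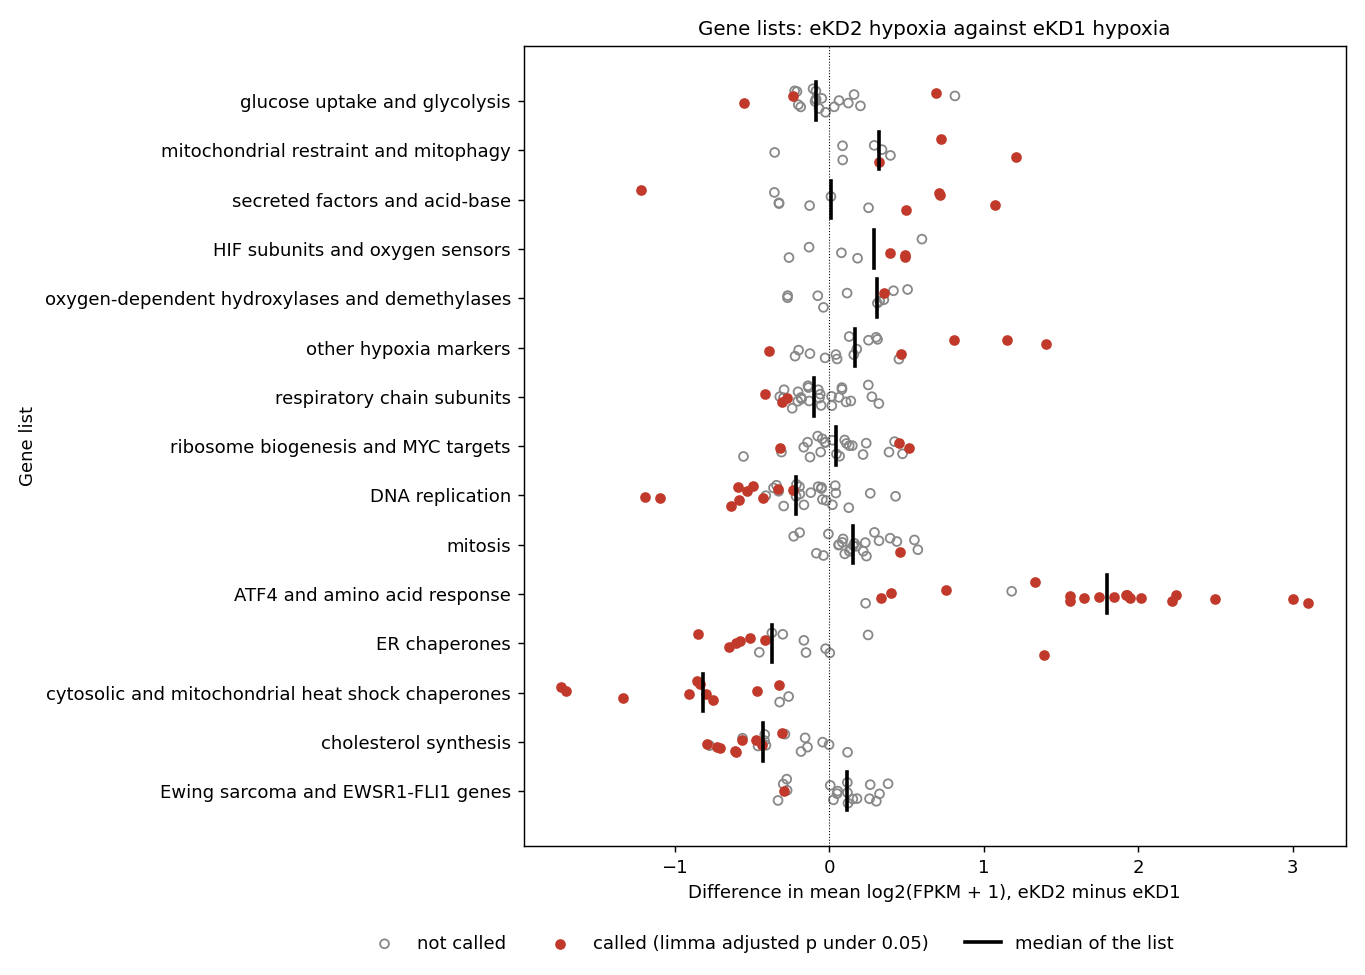
Difference in mean log2(FPKM + 1) between eKD2 and eKD1 in hypoxia (horizontal axis) for the genes of each list (rows), with filled red points for genes called by limma at an adjusted p under 0.05, open points for the others and black bars for list medians. The amino acid response list sits apart at a median of 1.80 and the heat shock chaperones at -0.82, while the glycolysis list sits at -0.09.

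Among the lists, the ATF4 and amino acid response had the largest median difference between guides. ATF4 is the transcription factor of the integrated stress response, and it drives genes of amino acid synthesis, uptake and tRNA charging. Of 21 genes 20 passed the filter, and 18 were higher in eKD2 than in eKD1 and none lower (median log2 difference 1.80). Among all genes 5.31% were higher and 3.72% lower. ASNS, asparagine synthetase, was at 38.6 and 37.1 FPKM in normoxia, 57.7 and 50.6 FPKM with eKD1 and 308 and 310 FPKM with eKD2, a log2 difference of 2.49 between guides (95% interval 2.28 to 2.71, adjusted p = 0.000642). SLC7A11, the cystine transporter, was below normoxia in eKD1 and above it in eKD2, at 18.1 and 18.3 FPKM in normoxia, 4.56 and 7.24 FPKM with eKD1 and 58.4 and 55.7 FPKM with eKD2.

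CHAC1, which degrades glutathione, was at 4.67 and 3.65 FPKM in normoxia, 10.2 and 9.04 FPKM with eKD1 and 80.9 and 87.2 FPKM with eKD2 (log2 difference 3, adjusted p = 0.00147). PCK2, mitochondrial PEP carboxykinase, showed a like difference of 2.99. In the joint comparison with normoxia only ATF3, PHGDH and SHMT2 of this list were called higher, where 11.9% of all genes were. ATF3, an early stress factor, was at 7.27 and 5.31 FPKM in normoxia, 29.9 and 38.6 FPKM with eKD1 and 180 and 151 FPKM with eKD2 (adjusted p = 0.0253, and 0.123 and 0.150 without replicate 1 or 2 of control normoxia). By guide, in the fit of 3 groups, 9 of the 20 were called higher and 3 lower in eKD1, and 19 higher in eKD2. The shares of all genes were 14.8% higher and 12.9% lower in eKD1, and 19.5% higher in eKD2. WARS, a tRNA synthetase, was at 80.9 and 349 FPKM in the eKD2 duplicates and at 69.3 to 81.0 FPKM in the other 4 libraries.

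**Figure D4:**
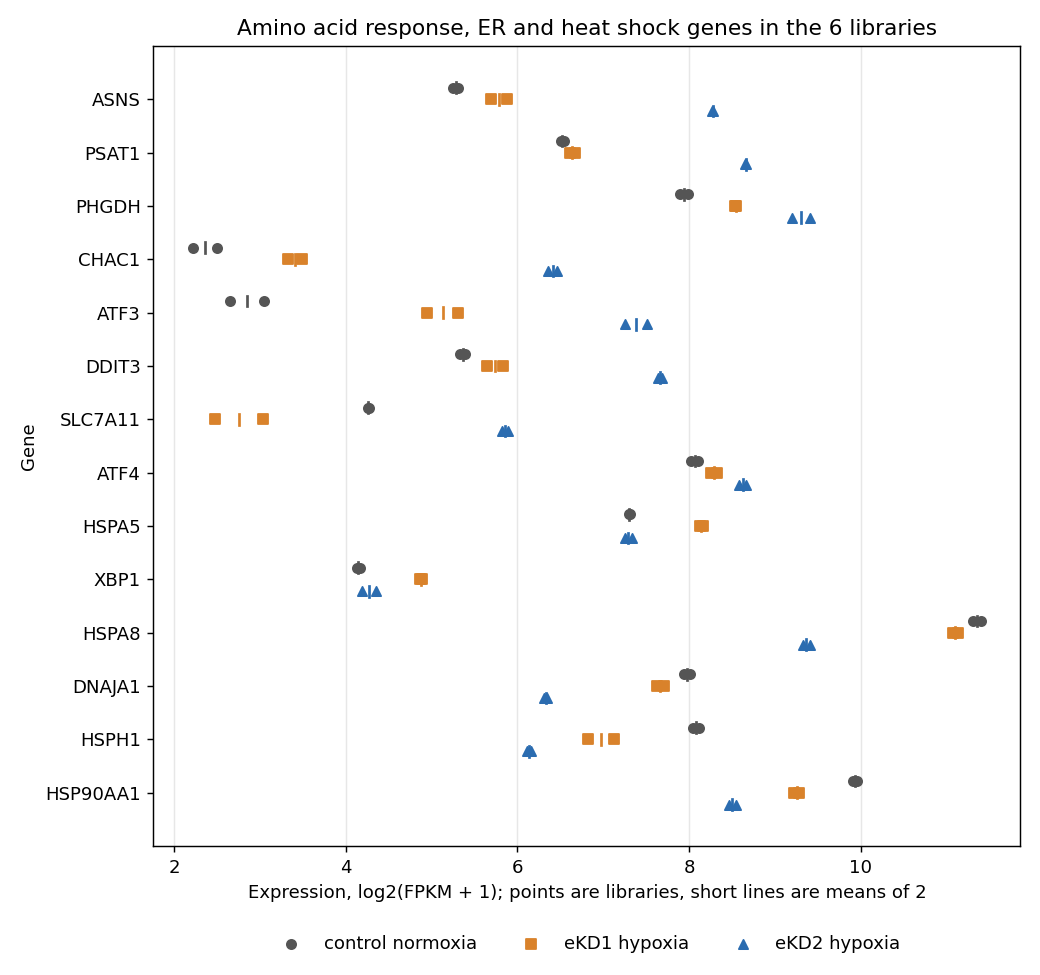
Expression of 14 amino acid response, ER and heat shock genes (rows) as log2(FPKM + 1) (horizontal axis) in each of the 6 libraries, with the mean of each pair as a short line. The eKD2 libraries stand to the right of eKD1 in ASNS, PSAT1, CHAC1, DDIT3 and SLC7A11 and to the left of it in HSPA8, DNAJA1, HSPH1 and HSP90AA1.

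Heat shock chaperones went the opposite way. Of 12 genes 10 were lower in eKD2 than in eKD1 and none higher (median log2 difference -0.82), where 3.72% of all genes were lower. HSPA8, the constitutive HSP70, was at 2702 and 2524 FPKM in normoxia, 2244 and 2149 FPKM with eKD1 and 639 and 679 FPKM with eKD2 (log2 difference -1.74, 95% interval -1.87 to -1.60, adjusted p = 0.000473). Against normoxia, 4 of the 12 were called lower in the joint comparison, where 8.21% of all genes were. HSPD1, the mitochondrial chaperonin, fell from 1066 and 1037 FPKM to 708 and 690 FPKM with eKD1 and 561 and 553 FPKM with eKD2 (adjusted p = 0.00907). HSPH1, a nucleotide exchange factor of HSP70, fell most, from 264 and 276 FPKM to 138 and 112 FPKM with eKD1 and 68.1 and 70.5 FPKM with eKD2 (adjusted p = 0.016, lost without either normoxia library).

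The ER chaperones were another place where the guides differed. Of 15 genes 6 were lower and 1 was higher in eKD2 than in eKD1 (median log2 difference -0.37). Of all genes tested, 3.72% were lower and 5.31% higher. HSPA5, the ER chaperone BiP, was at 157 and 156 FPKM in normoxia, 284 and 278 FPKM with eKD1 and 160 and 151 FPKM with eKD2 (log2 difference -0.85, adjusted p = 0.00431). The eKD2 libraries overlapped normoxia and the eKD1 libraries did not. HERPUD1, a factor of ER-associated degradation, was higher in eKD2 instead, at 102 and 112 FPKM against 35.3 and 45.3 FPKM with eKD1 and 31.8 and 25.1 FPKM in normoxia. In the joint comparison 2 of the 15 were called higher, CALR and CRELD2, which is near the 11.9% of all genes.

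Among the other genes with the largest differences between guides, PRRT2, a synaptic membrane protein, was at 2 and 0.772 FPKM in normoxia, 107 and 151 FPKM with eKD1 and 3.47 and 2.60 FPKM with eKD2. CARS, another tRNA synthetase, was at 748 and 645 FPKM in eKD2 and 111 and 38.1 FPKM in eKD1, but its normoxia duplicates, 238 and 98.5 FPKM, spread as widely as eKD1. AL590235.1 was listed at 0 in the normoxia and eKD2 libraries and at 10.2 and 28.3 FPKM in eKD1. FBXL16, an F-box protein, was at 0.790 and 0.628 FPKM in normoxia, 1.62 and 1.10 FPKM with eKD1 and 11.5 and 15.3 FPKM with eKD2. TG, the thyroglobulin gene, and MAP1A, a microtubule protein, were lower in eKD2 by 1.99 and 1.39 on the log2 scale, and the inducible HSP70 gene HSPA1A by 1.70.

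By mean FPKM over all 6 libraries, the 3 most expressed long non-coding RNAs called in the joint comparison were LRRC75A-AS1, SNHG5 and EPB41L4A-AS1, all higher. SNHG5, a snoRNA host gene, was at 232 and 249 FPKM in normoxia and 337 to 371 FPKM in the eKD libraries (adjusted p = 0.00579, 0.0655 without replicate 1 of control normoxia). LRRC75A-AS1 went from 567 and 556 FPKM to 654 to 697 FPKM, and EPB41L4A-AS1 from 55.4 and 79.5 FPKM to 96.5 to 189 FPKM. The latter 2 lost their calls without either normoxia library and with equal FPKM totals. Both are named for the antisense strand of a gene and can hold reads of it, since strand was not kept.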

How the data were processed

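Groups and replicate numbers were read from the labels. Per the study's methods, reads went through STAR (GRCh37), and the authors then used cufflinks and cuffnorm to make the deposited FPKM, which are 1 table of all libraries. How cuffnorm scaled one library to another is not given in the sources used here. Cufflinks divides reads among overlapping genes, and FPKM of very short genes are noisy. The table holds no read totals, so absolute depth is unknown and no counting interval was computed. From the steps between low values, relative depth was 73.3% to 108.8% of replicate 1 of control normoxia.

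FPKM were analysed as log2(FPKM + 1) for the 6 libraries, with the filter at 5 FPKM in 2 libraries. The joint comparison set all 4 eKD libraries against 2 control normoxia libraries with limma 3.58.1 in R 4.3.3 (lmFit, eBayes with a variance trend). Guide-specific comparisons came from a fit of the same libraries in 3 groups. P-values are two-sided and adjusted by Benjamini-Hochberg over 11102 genes, and all adjusted p-values are from limma. The authors used DESeq2 on read counts, which are not used here.

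GENCODE 44 on GRCh37 matched 99.34% of the kept genes and gave gene types and positions. Genes and gene lists were chosen with earlier results of these data known. The genes named are a panel of hypoxia and stress genes, the 12 largest non-overlapping rises and 12 falls among called protein-coding genes, the extremes of each list, the 6 largest rises and 6 falls between guides, the 3 most expressed called long non-coding RNAs and markers of other cell types above 1 FPKM. The fit was also run on simulated data in which the guides did not differ, and no result above rests on that run. Alternatives were another pseudocount, other filters and scalings, no variance trend, protein-coding genes alone, a replicate block, a fit of 3 groups and omission of each library. Omission of genes under 300 nt and of AC006483.1 from the totals were added after the data were seen.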

Additional observations from a re-analysis of the deposited data

Results flagged for a closer look

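These genes named above differed between the guides under hypoxia by the direct limma test of eKD2 against eKD1. Values are differences in mean log2(FPKM + 1), eKD2 minus eKD1, over 2 libraries each.

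Among hypoxia genes, eKD2 was higher in MXI1 by 1.21, ANKRD37 by 1.15, STC1 by 1.07, PDK1 by 0.72, STC2 by 0.71, HK2 by 0.69, EGLN1 by 0.49, HIF1A by 0.49, DDIT4 by 0.46, P4HA1 by 0.35 and BNIP3 by 0.32. The difference was -1.22 in ANGPTL4. In all of these the eKD1 and eKD2 libraries did not overlap.

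Among amino acid response and related genes, eKD2 was higher in CARS by 3.39, SLC7A11 by 3.10, CHAC1 by 3.0, PCK2 by 2.99, ASNS by 2.49 and ATF3 by 2.25. HERPUD1, of the ER list, was higher by 1.39.

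Among chaperones the difference was -1.74 in HSPA8, -1.70 in HSPA1A, -0.85 in HSPA5 and -0.84 in HSPH1. Cholesterol synthesis gave -0.56 in SQLE and -0.47 in HMGCS1, and DNA replication -0.53 in MCM5.

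In other genes the difference was 2.61 in FBXL16, 0.79 in AKAP9, -4.99 in PRRT2, -4.18 in AL590235.1, -1.99 in TG and -1.39 in MAP1A. What else differed between the guide pools, such as their infection, was not tested.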

How the results depend on the processing

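Of 87 named genes, 59 to 85 kept direction and side of the threshold under each setting run on all of them. Against normoxia, calls higher and lower were 840 and 1629 with equal FPKM totals, 919 and 1445 with those totals set without AC006483.1 (an alternative chosen after seeing the data), and 2159 and 1693 in a fit of 3 groups, which takes the spread between guides out of the error. AC006483.1 took 2.31% to 2.41% of the column total in normoxia and 3.61% to 5.04% in eKD libraries. Leaving out 1 library gave 304 to 1115 higher and 83 to 721 lower. For eKD1, equal totals gave 1066 and 2554, 2272 lower without AC006483.1, no filter 921 lower, and leaving out 1 library 750 to 1228 and 519 to 1053. For eKD2, leaving out 1 library gave 1020 to 1937 and 725 to 1383. Between guides, no filter gave 232 and 146, no variance trend 222 lower, and leaving out 1 library 31 to 158 and 19 to 91.

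Deviations of same-numbered libraries correlated at 0.175 between control normoxia and eKD1 and -0.0924 between control normoxia and eKD2. Between eKD1 and eKD2 the value was -0.0699. Whether replicate numbers pair the libraries cannot be told from these values. With the replicate block, 889 genes were higher and 545 lower than normoxia, 128 and 74 between guides, and 4 cholesterol genes were lower. Members called lower were 11 (ribosome biogenesis) and 3 (cholesterol) with no filter and 5 (cholesterol) with no trend. Leaving out 1 library gave 4 to 16 (ribosome biogenesis), 1 to 11 (mitosis) and 1 to 8 (cholesterol), against 17, 12 and 8. The 6 hypoxia lists had 45 to 64 members called higher.

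Changes that turned sign were never called. With median-of-ratios rescaling, equal totals and equal totals without AC006483.1 they were -0.0204, -0.1256 and -0.0988 in TET2, -0.0015, -0.1129 and -0.0846 in BIRC5 and -0.0138, -0.1256 and -0.0972 in DCN. SLC7A11 gave -0.0044 with a pseudocount of 0.1, and -0.0979 and -0.0715 with the equal totals. Without 1 library the change ranged from -0.0839 to 0.0431 in IGFBP5, -0.0814 to 0.1148 in TET2, -0.0462 to 0.0738 in BIRC5, -0.4848 to 0.6543 in SLC7A11, -0.9379 to 0.7832 in DNAJB9, -0.1448 to 0.4886 in EPCAM, -0.1554 to 1.2963 in CARS, -0.8004 to 0.0305 in TG and -0.4312 to 0.2364 in HSPA1A. Apart from what a setting changes by its construction, the causes were not tested.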

Other observations

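Some gene families outside the lists were chosen after their values were seen. Of 82 cytosolic ribosomal protein genes 59 were called higher and 1 lower (median log2 change 0.34), where 11.9% and 8.21% of all genes were. With equal FPKM totals 34 of them were higher and 1 lower, with a median of 0.19. These genes have many processed pseudogenes that can share reads. Of 78 mitochondrial ribosomal protein genes 12 were lower and none higher (limma; 8.21% of all genes were lower), and 25 were lower with equal FPKM totals, where the median was -0.25 against -0.11. Of 17 aminoacyl-tRNA synthetase genes 10 were higher in eKD2 than in eKD1 and none lower (median difference 1.02; 5.31% of all genes were higher), and of 11 tubulin genes 8 were lower in eKD2 and none higher (median difference -0.67; 3.72% of all genes were lower).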
